A study of Mus musculus with 6 samples.

Results

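*Trp53*, which encodes the tumour suppressor p53, and 9 genes of its response were examined in whole embryonic lungs that lacked epithelial *Yap*. The genes were the p53 inhibitor *Mdm2*, the arrest gene *Cdkn1a*, the cyclin gene *Ccng1*, the cell death genes *Bax*, *Bbc3* and *Pmaip1*, and *Trp53inp1*, *Sesn2* and *Phlda3*. They were picked by name from the authors' deposited table, in which each of the 10 had a single locus of its own among 24402 loci. Lungs of C57BL/6 embryos were collected at 12.5 *dpc*, with 3 libraries labelled wild type and 3 labelled *Yap*-flox/flox; *Shh*-Cre/+ (*Yap* mutant). Cre is made from the *Shh* gene itself, which the knock-in disrupts on that chromosome, and it deletes *Yap* in the epithelium and leaves the mesenchyme intact. The wild-type littermates carried neither the floxed allele nor Cre according to their label, so loss of *Yap* and loss of 1 *Shh* copy cannot be told apart in this design. For each locus the table holds 1 value per genotype, which the authors made from the 3 libraries and which is read here as FPKM (fragments scaled to transcript length and library size). All values below are these authors' values. With 1 value per genotype, the spread between libraries and the depth of each library are unknown, and no difference given here was tested.

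p53 is a transcription factor that is kept scarce in unstressed cells because MDM2 marks it for destruction. DNA damage and other stresses stabilise the protein, which then switches on genes that halt the cell cycle, genes that open the outer membrane of mitochondria to start apoptosis, and genes such as *Mdm2* that shut the response down again. Control is exerted mainly on the protein, so the RNA level of *Trp53* is not a measure of p53 activity, whereas the RNA of its targets is the usual readout. In the mouse embryo, loss of *Mdm2* is lethal unless p53 is removed as well.

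p53 binds DNA at paired half-sites. The half-site consensus of 10 bases, whose core is CNNG with A or T at both inner positions and which reads the same on both strands, was searched in RefSeq promoters of GRCm38, from 250 bases before to 50 bases after each start. Of the 10 genes, 8 had a promoter in that table, and *Trp53inp1* and *Pmaip1* did not. A gene can have several promoters. A match was present in at least 1 promoter for 5 of these 8 genes (62.5%), beside 9.55% of all 27025 genes, and in 5 of their 11 promoters (45.5%), beside 8.36% of all 32851 promoters. The matches are shown because the genes that carry them include those with the largest and those with among the smallest differences between genotypes. Each line gives 40 bases from 5′ to 3′ on the strand of the gene, and capitals mark the half-site.
*Cdkn1a*: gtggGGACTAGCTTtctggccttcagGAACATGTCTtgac
*Ccng1*: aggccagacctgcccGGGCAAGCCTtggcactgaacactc
*Trp53*: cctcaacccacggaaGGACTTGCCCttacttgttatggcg
*Mdm2*: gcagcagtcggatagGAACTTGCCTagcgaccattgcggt
*Bax*: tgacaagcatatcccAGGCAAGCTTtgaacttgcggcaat
The stretches lie at chr17:29090902-29090941 (plus strand), chr11:40755447-40755486 (minus), chr11:69580269-69580308 (plus), chr10:117710920-117710959 (minus) and chr7:45467075-45467114 (minus). *Cdkn1a* held 2 half-sites separated by 12 bases, and 24 of all promoters (0.0731%) held a pair with at most 13 bases between the sites. The half-sites of *Cdkn1a* began 73 and 51 bases before the start of transcription, and that of *Trp53* began 75 bases before it. In *Ccng1*, *Mdm2* and *Bax* they began 185, 186 and 201 bases before it. No match was found in these windows for *Bbc3*, *Sesn2* or *Phlda3*. A match is a description of the letters and not evidence of binding.

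The levels of the 10 genes spanned a wide range that was nearly the same in both genotypes. *Trp53* and *Bax* were abundant, and *Cdkn1a*, *Bbc3* and *Pmaip1* were low. In wild-type lungs the order by FPKM was *Trp53*, *Bax*, *Phlda3*, *Mdm2*, *Ccng1*, *Trp53inp1*, *Sesn2*, *Cdkn1a*, *Bbc3* and *Pmaip1*. In *Yap* mutant lungs *Ccng1* moved ahead of *Phlda3* and *Mdm2*, and the other positions were kept. The level of *Trp53* was 49.1 times that of *Bbc3* in wild-type lungs. Whether neighbours in this order differ beyond the spread of libraries is unknown. Summed over the 10 genes, the level was 258.8 FPKM in wild-type and 257.6 FPKM in *Yap* mutant lungs. Most of this sum came from *Trp53* and *Bax* (110.1 and 73.7 FPKM in wild-type lungs), so it says little about the lower genes.

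**Figure D1:**
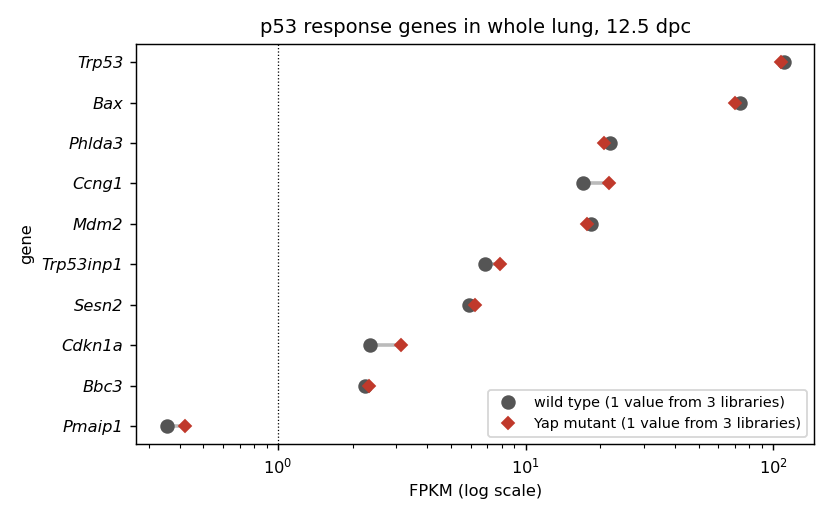
FPKM (log scale, horizontal axis) of the 10 p53 response genes (vertical axis) in wild-type lungs (grey circles) and *Yap* mutant lungs (red diamonds), each symbol 1 value that the authors made from 3 libraries; the dotted line marks 1 FPKM. The symbols nearly coincide for *Trp53*, *Bax*, *Mdm2* and *Bbc3* and lie apart for *Ccng1* (17.1 and 21.8 FPKM) and *Cdkn1a* (2.36 and 3.13 FPKM).

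Differences are given as the log2 ratio of *Yap* mutant over wild-type FPKM, and a locus entered the counts if its mean over the genotypes reached 1 FPKM. Of the 10 genes, 9 passed this filter and *Pmaip1* did not. None (0) of the 9 differed by 1.5-fold or more in either direction, beside 7.96% of all 12701 loci that passed. With that share, a list of 9 genes can hold 0. At 1.2-fold, 2 of the 9 differed, *Cdkn1a* and *Ccng1*, both higher in the mutants, and so did 21.3% of all loci. At 2-fold, 0 of the 9 and 3.5% of all loci differed. The 9 ratios ran from -0.08 (*Phlda3*) to 0.41 (*Cdkn1a*). Their median was 0.05, beside a median of -0.01 over all loci, and 5 were higher and 4 lower, beside 48.2% of all loci higher. With both columns scaled to the same sum, 7 were higher and 2 lower, beside 60.1% of all loci higher, because *Trp53* and *Mdm2* then lay just above 0. The values of the 2 genotypes lay within 10% of each other for 6 of the 9 genes and for 60.9% of all loci.

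Because low loci scatter more, each gene was also set beside loci of a like level. All 12701 loci were ordered by mean FPKM and divided into 10 groups of equal size. At least 1.5-fold differences made up 26.0% of the lowest group and 2.44% of the highest, which holds *Trp53* and *Bax*. They made up 2.76% of the group of *Mdm2*, *Ccng1* and *Phlda3*, and 7.17% of that of *Trp53inp1*. For *Sesn2* the share was 10.1%, and for *Cdkn1a* and *Bbc3* it was 16.6%. These shares describe single loci of the same libraries and are no test.

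**Figure D2:**
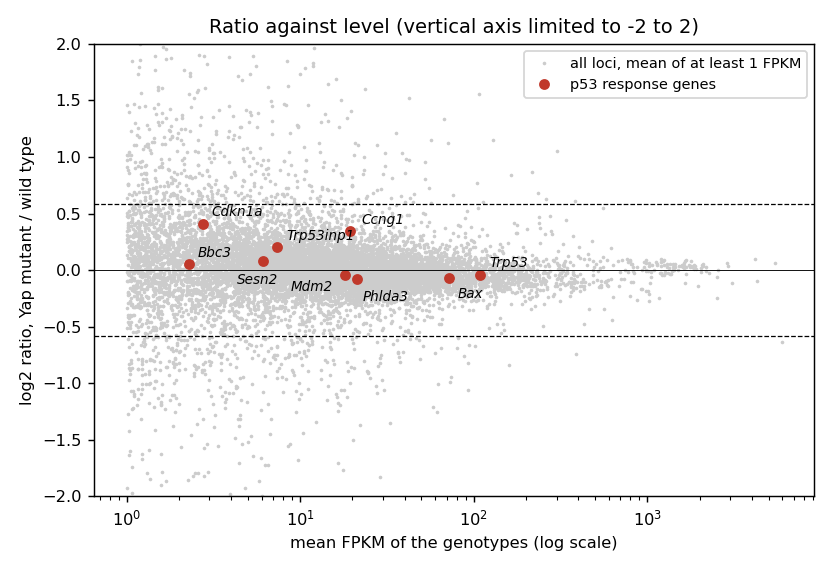
Log2 ratio of *Yap* mutant over wild-type FPKM (vertical axis) against the mean FPKM of the genotypes (horizontal axis, log scale) for all loci that reached a mean of 1 FPKM (grey dots) and for the 9 p53 response genes that passed this filter (red), with dashed lines at 1.5-fold; 133 loci lie outside the vertical range shown. All 9 lie between the dashed lines, and *Ccng1* (0.35) lies above *Mdm2* and *Phlda3*, whose levels are near its own.

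The gene for p53 itself hardly differed. *Trp53* (chromosome 11, 69580359 to 69591873) had 110.1 FPKM in wild-type and 107.0 FPKM in *Yap* mutant lungs, a log2 ratio of -0.04. Its mean exceeded that of 94.6% of the loci that passed. In its group of 1270 loci, 73.8% had a ratio at least as far from 0. The related genes *Trp63* and *Trp73*, which encode p63 and p73, were far lower, at 0.375 and 0.459 FPKM for *Trp63* in wild-type and mutant lungs and at most 0.0216 FPKM for *Trp73*.

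The inhibitors of p53 showed a like picture. *Mdm2* (chromosome 10, 117688902 to 117710790), the ubiquitin ligase of p53 and also its target, had 18.3 FPKM in wild-type and 17.7 FPKM in mutant lungs, a log2 ratio of -0.04. Loci with a ratio at least as far from 0 made up 71.4% of its group. The level of *Trp53* was 6.02 times that of *Mdm2* in wild-type lungs and 6.03 times in mutant lungs. *Mdm4*, a partner of MDM2 that blocks p53 directly, had 19.8 and 21.8 FPKM (log2 ratio 0.13), and *Ppm1d*, the phosphatase that ends p53 signalling, had 12.6 and 11.4 FPKM (-0.14).

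*Ccng1* and *Cdkn1a* had the largest ratios of the 9 genes. *Ccng1* (chromosome 11, 40748552 to 40755286) encodes cyclin G1, a p53 target that brings a phosphatase to MDM2. It had 17.1 FPKM in wild-type and 21.8 FPKM in mutant lungs, a log2 ratio of 0.35 or a difference of 27.2%. In its group, which ran from 17.6 to 24.1 FPKM, 5.91% of 1270 loci had a ratio at least as far from 0, the smallest such share of the 9 genes.

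*Cdkn1a* (chromosome 17, 29090986 to 29100722) encodes p21, the inhibitor of cyclin-dependent kinases through which p53 halts the cycle. It had 2.36 FPKM in wild-type and 3.13 FPKM in mutant lungs, a log2 ratio of 0.41. The gene was low, with a higher mean than 14.4% of loci, and 26.9% of the loci of its group had a ratio at least as far from 0. Its ratio thus exceeded that of *Ccng1* but was more usual at its level. With 1 FPKM added to both values it was 0.30. Of the other inhibitors of this family, *Cdkn1b* (p27) had 17.9 and 18.3 FPKM, a log2 ratio of 0.03. *Cdkn1c* (p57) was the most abundant of the family, with 306.7 and 277.2 FPKM and a ratio of -0.15.

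The cell death targets were near equal in the whole-lung values of the genotypes. *Bax* (chromosome 7, 45461695 to 45466898), which forms pores in the outer mitochondrial membrane, had 73.7 FPKM in wild-type and 70.3 FPKM in mutant lungs, a log2 ratio of -0.07. In its group, 57.3% of loci had a ratio at least as far from 0. *Bbc3* (chromosome 7, 16309575 to 16318334), whose product PUMA releases BAX from its guardians, had 2.24 and 2.33 FPKM, a log2 ratio of 0.05. Loci with a ratio at least as far from 0 made up 86.9% of its group. *Pmaip1* (chromosome 18, 66458604 to 66465558), whose product NOXA neutralises MCL1, was under 1 FPKM in both, at 0.356 FPKM in wild-type and 0.422 FPKM in mutant lungs. Its log2 ratio of 0.25 became 0.07 with 1 FPKM added to both values.

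The remaining genes act on stress, metabolism and growth signalling. *Trp53inp1* (chromosome 4, 11156428 to 11175155), a stress protein that promotes p53 activity and autophagy, had 6.88 FPKM in wild-type and 7.91 FPKM in mutant lungs. Its log2 ratio of 0.20 came next after those of *Cdkn1a* and *Ccng1*, and 28.5% of its group had a ratio at least as far from 0. *Sesn2* (chromosome 4, 132492079 to 132510540), a leucine sensor that restrains mTORC1, had 5.90 and 6.25 FPKM, a log2 ratio of 0.08. The other sestrins lay on either side of it, *Sesn1* with 19.0 and 22.0 FPKM (0.21) and *Sesn3* with 27.8 and 24.1 FPKM (-0.21). *Phlda3* (chromosome 1, 135766085 to 135769134), a small protein that competes with AKT for membrane lipids, had 21.9 and 20.7 FPKM, a log2 ratio of -0.08. In the groups of *Sesn2* and *Phlda3*, 68.8% and 50.4% of loci had a ratio at least as far from 0.

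The genes with a half-site in the promoter window included those with the largest ratios and others with ratios near 0. *Cdkn1a* and *Ccng1* had log2 ratios of 0.41 and 0.35, and *Trp53*, *Mdm2* and *Bax* had -0.04, -0.04 and -0.07. The genes with a promoter but no match had 0.05 (*Bbc3*), 0.08 (*Sesn2*) and -0.08 (*Phlda3*). The GENCODE annotation places another gene across part of the loci of *Cdkn1a*, *Bax* and *Sesn2*, and whether the authors counted fragments by strand is not given in the sources used here. The overlapping gene lies on the opposite strand for *Cdkn1a*, over 1046 bases, and on the same strand for *Bax* and *Sesn2*, over 915 and 6089 bases, so the values can hold fragments of it.

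Other known targets of p53 were centred on no difference. Of 41 listed genes, all 41 had a locus, 3 of them under an older symbol, and 35 passed the filter, of which 18 were higher and 17 lower. Their median log2 ratio was 0.00. At 1.5-fold, 3 were higher and 1 was lower, which is 11.4% of the 35, beside 7.96% of all loci. These 4 are named because they passed. *Ak1*, an adenylate kinase abundant in muscle, had 7.65 FPKM in wild-type and 20.0 FPKM in mutant lungs, a log2 ratio of 1.38. *Perp*, a desmosomal protein of epithelia that p53 and p63 induce, had 1.61 and 3.56 FPKM (1.15), and *Plk2*, a polo-like kinase, had 77.4 and 131.7 FPKM (0.77). *Gadd45a*, a stress sensor of the growth arrest family, was the lower one, at 5.71 and 2.80 FPKM (-1.03).

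Other core targets lay within 1.5-fold. *Zmat3*, an RNA-binding p53 target, had 3.70 and 3.01 FPKM (log2 ratio -0.30), and *Btg2*, an antiproliferative gene, had 16.9 and 13.7 FPKM (-0.31). At 1.2-fold, 6 of all 35 targets were higher and 4 lower, beside 21.3% of all loci past it in either direction. *Rps27l*, the most abundant of the list, had 214.1 and 212.3 FPKM (-0.01). Among the regulators of p53, 22 of 25 genes passed the filter, and 10 were higher and 12 lower, beside 48.2% of all loci higher. None (0) of the 22 reached 1.5-fold, beside 7.96% of all loci, with ratios from -0.15 to 0.23. The ribosomal protein gene *Rpl11*, whose product can bind MDM2, was the most abundant of them, at 1612.4 and 1648.4 FPKM (0.03).

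**Figure D3:**
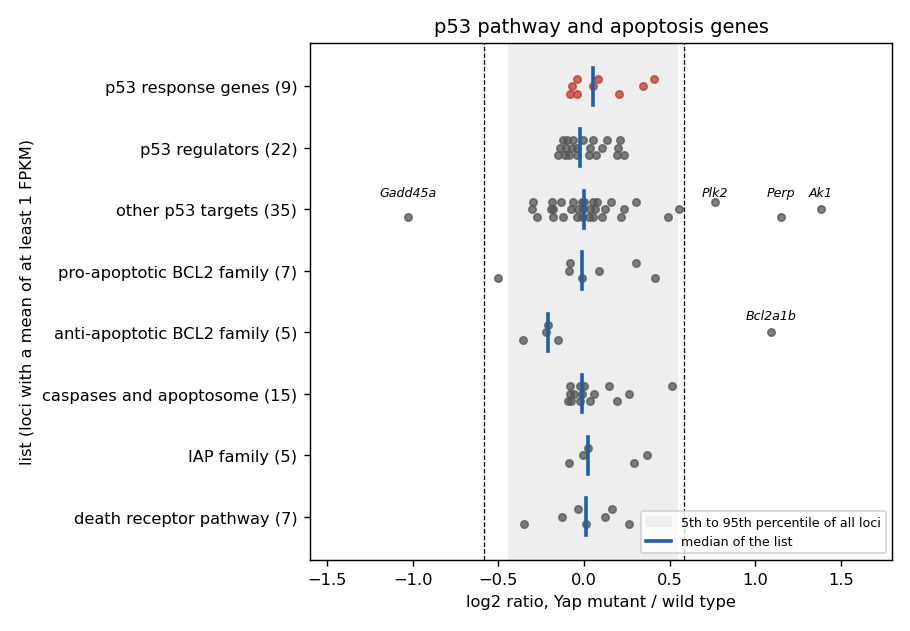
Log2 ratio of *Yap* mutant over wild-type FPKM (horizontal axis) for each locus (points) of the p53 response genes (red) and of 7 further lists of the pathway (grey), with the number of loci that passed the filter in brackets, the median of each list as a blue bar, the range from the 5th to the 95th percentile of all loci (-0.44 to 0.54) shaded and 1.5-fold as dashed lines. Only *Gadd45a*, *Plk2*, *Perp*, *Ak1* and *Bcl2a1b* lie outside the dashed lines.

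BAX acts together with the other members of the BCL2 family, some of which are guardians that hold it in check. Of 5 guardian loci that passed the filter, 4 were lower in mutant lungs and 1 was higher, beside 51.8% of all loci lower. None of the 4 reached 1.5-fold and the higher one did, which is 20% of the 5, beside 7.96% of all loci. *Bcl2* had 7.88 FPKM in wild-type and 6.16 FPKM in mutant lungs, a log2 ratio of -0.35. *Bcl2l1*, which encodes BCL-XL, had 23.3 and 20.2 FPKM (-0.21), and *Mcl1* had 84.9 and 72.6 FPKM (-0.22). *Bcl2l2*, which encodes BCL-W, had 202.5 and 182.5 FPKM (-0.15), but its locus is shared with *Pabpn1* and its own level is uncertain. The scalings tried add about 0.04 or less to every ratio, so they could not change the direction of these 4.

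*Bcl2a1b*, at 0.851 and 1.81 FPKM (1.09), was the guardian past 1.5-fold. It is low and belongs to a cluster of nearly identical copies, so its value is uncertain too. The median of the list was -0.21. The level of *Bax* was 9.36 times that of *Bcl2* in wild-type lungs and 11.4 times in mutant lungs, a log2 difference of 0.29. Relative to the more abundant *Bcl2l1* and *Mcl1* the differences were 0.14 and 0.16, with *Bax* at 3.17 and 3.49 times *Bcl2l1* and at 0.869 and 0.968 times *Mcl1*.

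The other promoters of cell death in this family lay on both sides of no change. Of 7 loci that passed, 3 were higher and 4 lower, with 0 past 1.5-fold, beside 7.96% of all loci, and the median was -0.01. *Bak1*, the second pore former, had 32.3 and 30.4 FPKM (-0.09), and its level relative to *Bax* was 0.438 in wild-type and 0.432 in mutant lungs. *Bcl2l11*, which encodes the trigger BIM, had 11.8 and 14.5 FPKM (0.30). The outermost genes of this list, named after their values were seen, were *Bid* (5.94 and 4.19 FPKM, -0.50) and *Bik* (2.79 and 3.72 FPKM, 0.42).

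Downstream of BAX, the caspases and the apoptosome had 15 loci that passed, 7 higher and 8 lower. None (0) of the 15 was past 1.5-fold, beside 7.96% of all loci. *Cycs*, which encodes cytochrome c and was the most abundant of them, had 54.8 FPKM in wild-type and 54.3 FPKM in mutant lungs (log2 ratio -0.01). *Casp9*, which the apoptosome activates, had 10.1 FPKM in wild-type and 11.5 FPKM in mutant lungs (log2 ratio 0.19). *Apaf1*, the scaffold of the apoptosome and a p53 target, had 12.4 FPKM in both (0.00). Of the inhibitors of apoptosis, 5 of 8 loci passed, 3 higher and 2 lower, with 0 past 1.5-fold, beside 7.96% of all loci. *Xiap*, which blocks caspases, had 29.2 and 29.1 FPKM (-0.01), and *Birc5* (survivin), also a mitotic gene, had 116.9 and 109.9 FPKM (-0.09).

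In the death receptor pathway 7 of 11 loci passed, 4 higher and 3 lower, and 0 reached 1.5-fold, beside 7.96% of all loci. At that share, lists this short can hold 0. *Tnfrsf1a*, the TNF receptor, was the most abundant at 35.6 and 42.6 FPKM (0.26). The p53-induced receptor *Tnfrsf10b* had 5.69 and 6.19 FPKM (0.12). *Fas* was near the filter, at 0.715 and 1.04 FPKM, and did not pass it.

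RNA of the whole organ mixes cell types, and fewer cells of a type cannot be told apart from less RNA per cell. Near-equal whole-lung values therefore do not show whether a gene differed within the epithelial cells. The lung marker *Nkx2-1* had 61.9 FPKM in wild-type and 35.9 FPKM in mutant lungs. Of 19 epithelial markers, 11 were lower and 2 higher by 1.5-fold, beside 435 lower and 576 higher of all 12701 loci. The epithelial median was -0.60. The mesenchymal, endothelial and macrophage medians were 0.12, 0.17 and 0.17.

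Cardiac muscle markers were higher by 1.5-fold at 9 of the 9 loci that passed, beside 576 of all 12701 loci. The summed level of the cardiac markers was 83.3 FPKM in wild-type and 797.1 FPKM in mutant lungs. Beside the same 576 of 12701 loci, liver markers were higher by 1.5-fold at 4 of the 5 loci that passed, *Afp*, *Ttr*, *Trf* and *Apoa1*. The other, *Alb*, was lower, at 1.28 and 1.14 FPKM. Of the loci under the filter, *Apoa2* and *Serpina1a* were lower and *Fgb* and *Ahsg* higher. Liver sums over all 9 loci were 14.4 FPKM in wild-type and 60.6 FPKM in mutant lungs. No cardiac or liver marker was at 0 in either genotype. *Ddx3y*, on the Y chromosome, had 0.0163 FPKM in wild-type and 10.2 FPKM in mutant lungs, and *Xist* had 97.0 and 50.4 FPKM. The mix of sexes thus differed between the genotypes, and sex and genotype cannot be told apart in these values. The part of heart, liver or epithelium in the values of *Ccng1*, *Cdkn1a*, *Ak1* or the other genes above was not tested. *Yap1* itself had 76.1 and 65.6 FPKM (-0.21) over the whole locus, which includes the *Yap* of the mesenchyme, and *Shh* had 15.6 and 2.31 FPKM (-2.76).

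**Figure D4:**
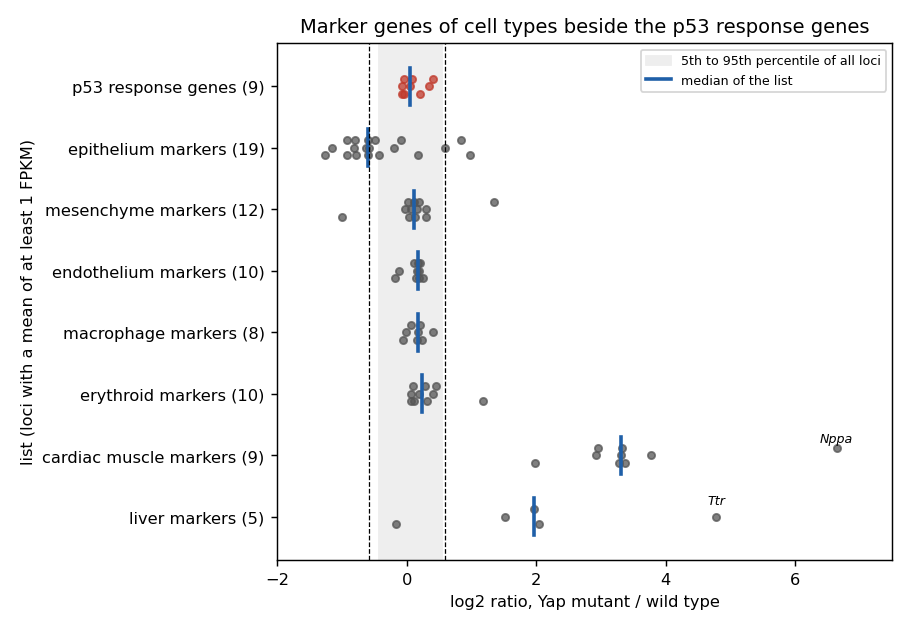
Log2 ratio of *Yap* mutant over wild-type FPKM (horizontal axis) for each locus of the p53 response genes (red) and of 7 lists of cell type markers (grey), with the number of loci that passed the filter in brackets, list medians in blue, the 5th to the 95th percentile of all loci shaded and 1.5-fold as dashed lines. Epithelial markers are centred on -0.60 and cardiac markers on 3.31, while the p53 response genes are centred on 0.05.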

How the data were processed

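RNA of 6 whole-lung libraries (3 wild type, 3 *Yap* mutant) was sequenced from stranded paired-end libraries on HiSeq instruments and analysed by the authors on the Maverix platform. The submitters' processing notes name TopHat, Cuffdiff and mm10, without versions. The authors deposited 2 tables with 1 FPKM value per genotype. FPKM is inferred from the deposited columns, which are those of a Cuffdiff gene test. The tables' columns of fold change and p-value, and the second table, a list of the loci the authors call changed, hold results of their own comparison and were not used. No column belonged to other samples.

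Log2 ratios were computed from the deposited FPKM without a pseudocount, for loci with both values above 0 and a mean of at least 1 FPKM, and called at 1.5-fold. List members were matched by symbol or, failing that, by a single RefSeq synonym. Locus starts count from 0 (9308 of 21012 start 1 below the RefSeq gene and 617 at it), so 1 was added. Ratios and calls were checked on simulated data.

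The members and lists were chosen with earlier results of these data known. Named genes are the 10 members, list genes past 1.5-fold, the most abundant gene of each list and a set of core regulators chosen by function. Of these core genes, 1 is not reported here. Alternatives were pseudocounts of 0.1 and 1 FPKM, no filter, a mean of at least 5 FPKM, centring on the median of all loci, scaling to equal sums, and folds of 1.2 and 2. The work used Python 3.11.15, numpy 2.4.6, pandas 2.3.3 and matplotlib 3.10.9.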

Additional observations from a re-analysis of the deposited data

How the results depend on the processing

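The number of p53 response genes past 1.5-fold was 0 under every pseudocount, filter and scaling tried, beside 4.14% to 20.2% of all loci. This number was also 0 at 2-fold, which 3.5% of all loci reached. It was 2 at 1.2-fold. The median log2 ratio of these genes ran from -0.04 (7 genes with a mean of at least 5 FPKM) to 0.10 (both columns scaled to the same sum). That scaling adds 0.04 to every ratio, brings *Trp53* and *Mdm2* to 0.00, and leaves 7 of 9 genes higher and 2 lower. It likewise turns the small negative medians of the p53 regulators, the caspases and the pro-apoptotic BCL2 genes to 0.02, 0.03 and 0.03. Of the ratios of single genes and the medians of the other lists, 152 moved by less than 0.1 and 7 by more under these alternatives. No value past 1.5-fold changed sign. Much of this count was fixed in advance and is no support for the values. Centring and scaling add a constant under 0.1 to every ratio, and the filters cannot change the ratio of a single gene. No leave-one-out was run, since the tables give 1 value per genotype. No paired analysis was possible because the columns carry no replicate numbers.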

Other observations

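*Sesn2* and *Ddit4* also respond to ATF4 in the integrated stress response, the pathway by which cells slow translation and make amino acids under stress. Of 17 listed genes of that response, 15 passed the filter of 1 FPKM, of which 9 were higher and 6 lower in *Yap* mutant lungs. None (0) of the 15 was past 1.5-fold, beside 7.96% of all loci, and their median log2 ratio was 0.08. *Atf4* had 84.7 FPKM in wild-type and 77.2 FPKM in mutant lungs (-0.13), and *Ddit3*, which encodes the death-promoting factor CHOP, had 8.30 and 8.19 FPKM (-0.02). *Phgdh*, a serine synthesis enzyme and the most abundant of the list, had 90.5 and 85.1 FPKM (-0.09). Half-sites of p53 were found in the promoter windows of 8 of the 33 other p53 targets with a promoter (24.2%) and of 9.55% of all genes.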
